A study of Mus musculus with 8 samples.

Results

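Of the 20887 genes with a named probe on the array, 8 members of the solute carrier family 22 (Slc22) were followed in whole embryonic mouse kidneys with and without Dot1 in their nephron progenitors: Slc22a2, Slc22a4, Slc22a5, Slc22a6, Slc22a8, Slc22a12, Slc22a17 and Slc22a23. They were chosen by name, as family members other than the imprinted Slc22a18, and every probe whose accession maps to one of these symbols was taken. Each member had 1 probe, and all 8 probes were kept among the 18146 named probes that were well above background in the sample channel on at least 4 of the 8 arrays. Slc22 proteins are membrane transporters that carry small organic ions. In the mature kidney most of them work in the proximal tubule, the first stretch of the nephron after the glomerulus: some take up drugs, toxins and metabolites from the blood for secretion into the urine, and others recover carnitine or urate from the filtrate. Proximal tubules form from nephron progenitors, and several of these genes are known to be expressed more strongly as the tubules mature.

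The samples were kidney pairs of C57BL/6 mouse embryos at embryonic day 16.5. The 4 wildtype samples (WT1 to WT4) carry the genotype "control" in the labels. The 4 knockout samples (KO1 to KO4) carry the genotype "DOT1-null", and per the series title Dot1, a histone H3 lysine 79 methyltransferase (taken here as Dot1l), was knocked out conditionally in Six2-positive nephron progenitor cells, so that ureteric bud, stroma, vessels and blood cells of the KO kidneys were not targeted. Which driver line was used, and whether the WT embryos carried it, is not given in the sources used here. The sample RNA was in the red channel (Cy5) and WT1 RNA in the green channel (Cy3) throughout, with no dye swap. Values below are log2 ratios of sample to WT1 reference, and a difference is the mean of the 4 KO arrays minus the mean of the 4 WT arrays. The number of arrays limits the precision.

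Some features of the arrays bear on every value. On the WT1 array WT1 RNA was compared with itself. The median of the negative-control spots in red was 1361 scanner units on WT1 and 478.25 on KO1, but only 58 to 61 on the other 6 arrays. By Ddx3y, a Y-linked gene, all 4 KO embryos and WT2 were male and the other 3 WT embryos were female. All arrays lay on 1 slide with WT in one row and KO in the other, so that row and group cannot be told apart, and a replicate number always stood in the same column. The Dot1l probe ranged from -0.23 to -0.09 in WT and from -0.21 to -0.04 in KO (difference 0.03 ± 0.08, SE; limma adjusted p = 0.927). The kidneys also held cells that were not targeted, in a share that was not measured. The place of this probe in the deleted gene was not analysed here, so the probe does not check the labels.

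None of the 8 genes passed limma's test at an adjusted p of 0.05. The nearest was Slc22a6, the main organic anion uptake carrier of the proximal tubule, which was 0.77 higher in KO on the log2 scale and was the only member whose WT and KO arrays did not overlap. Slc22a2, the organic cation carrier of the same cells, was 0.40 higher with wide overlap, and the other 6 genes differed by between -0.16 and 0.19. Of the 8 differences, 6 were positive and 2 negative, with a median of 0.15, against a median of 0.02 over the 18146 probes tested. The signs of Slc22a12 and Slc22a17 depended on the setting. By limma, 0 of 8 members were called at an adjusted p of 0.05, where 1.53% of the tested probes were (278 of 18146; 1.11% higher and 0.419% lower in KO). At an unadjusted p under 0.05 there was 1 member, against 13.2% of the tested probes. For 1 member the groups did not overlap, against 8.56% of the tested probes. The counts of members thus lay near these backgrounds.

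**Figure D1:**
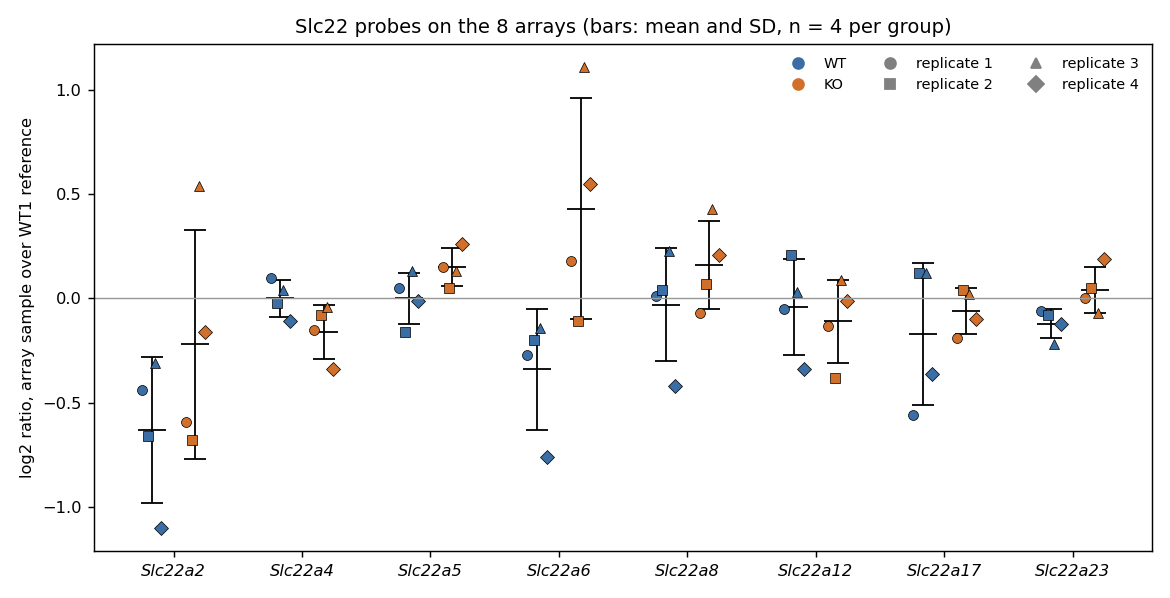
Log2 ratio of each array sample over the WT1 reference (vertical axis) for the 8 Slc22 probes (horizontal axis), with WT in blue, KO in orange and a marker shape per replicate number. Bars are the group mean and SD of 4 arrays. The WT and KO points of Slc22a6 do not overlap, and those of the other 7 genes do.

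The organic anion transporters come first. Slc22a6 (OAT1) sits in the basolateral membrane of proximal tubule cells, where it exchanges dicarboxylates from inside the cell for organic anions from the blood, and Slc22a8 (OAT3) does the same with a partly different range of anions. Both genes lie side by side on chromosome 19, with no coding gene between them in RefSeq. Their promoters are shown for their base composition, since both are poor in CpG dinucleotides, the sites of DNA methylation. Each window holds 300 bases around the RefSeq start of the gene in GRCm38.p6 and is written 5′ to 3′ along the gene's plus strand, chr19:8617746-8618045 for Slc22a6 and chr19:8592932-8593231 for Slc22a8. The CpG dinucleotides are in capitals.
Slc22a6: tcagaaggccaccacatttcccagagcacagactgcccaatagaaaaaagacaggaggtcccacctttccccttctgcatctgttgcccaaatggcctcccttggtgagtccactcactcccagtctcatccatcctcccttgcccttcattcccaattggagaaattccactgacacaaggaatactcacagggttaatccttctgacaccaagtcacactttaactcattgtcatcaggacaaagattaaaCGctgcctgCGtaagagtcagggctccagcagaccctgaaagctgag
Slc22a8: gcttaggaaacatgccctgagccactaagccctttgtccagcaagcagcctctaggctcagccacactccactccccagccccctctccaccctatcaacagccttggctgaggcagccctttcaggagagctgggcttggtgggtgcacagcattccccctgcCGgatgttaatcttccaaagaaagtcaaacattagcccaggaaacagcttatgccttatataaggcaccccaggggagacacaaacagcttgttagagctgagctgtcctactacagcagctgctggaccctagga
Slc22a6 has 2 CpG and Slc22a8 has 1 in these windows, where the median of all 32851 promoter windows of this length is 7. The core of the Hnf4a site, CAAAGTCCA, searched on both strands, was in 0 of the 8 member promoters and in 0.475% of all windows. This is a count of letters in a short window and was not tested as binding. It covers this motif only, and other motifs that were planned are not reported here.

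Slc22a6 had log2 ratios of -0.27, -0.20, -0.14 and -0.76 on WT1 to WT4 and of 0.18, -0.11, 1.11 and 0.55 on KO1 to KO4. Every KO array lay above every WT array, although KO2 (-0.11) and WT3 (-0.14) nearly met, and the KO arrays were spread more widely than the WT arrays. The means were -0.34 ± 0.29 in WT and 0.43 ± 0.53 in KO (SD, n = 4 each). The difference was 0.77 ± 0.22 (SE of limma's moderated fit, 95% interval 0.30 to 1.25), a 1.71-fold higher level in KO, with a limma adjusted p of 0.117. Of the tested probes 0.546% had a difference at least as large in either direction, but only 1.32% had an SE at least as large. When the replicate number was fitted as a block, the difference was 0.77 ± 0.18 and passed (limma adjusted p = 0.0461), in a fit that called 3.03% of all probes. The pairing that the block assumes is not established. In whole kidneys, a change in the number of cells of a type and a change in RNA per cell cannot be told apart.

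On the 6 arrays with low negative controls the unnormalized red signal of Slc22a6 separated the groups too, although KO4 and not KO3 was the highest. It was 5136 to 5533 scanner units on WT2 to WT4 and 6387 to 10855 on KO2 to KO4. The green signal of the common reference was 2927.5, 2841 and 2534 on WT2 to WT4. On KO2 to KO4 it was 2426.5, 2506 and 2354, lower on each of these than on WT2 to WT4. The part of this green shift in the difference was not tested. On WT1 and KO1, the arrays with high negative controls, the red signal was 12477 and 11689, so that WT1 exceeded every KO array before normalization. Without both of these arrays the difference was 0.88 ± 0.28 (limma adjusted p = 0.195). The estimate rested in part on KO3: without it the difference was 0.55 ± 0.17 (adjusted p = 0.178), and without WT4 it was 0.63 ± 0.22 (adjusted p = 0.284). With sex as a term, which sets the KO arrays against the single male WT array, it was 0.63 ± 0.35 (adjusted p = 0.508). All 4 KO arrays lay above that array. Over 21 alternative settings the difference ran from 0.55 to 1.12, positive in all 21 and past the threshold in 1, the replicate block.

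**Figure D2:**
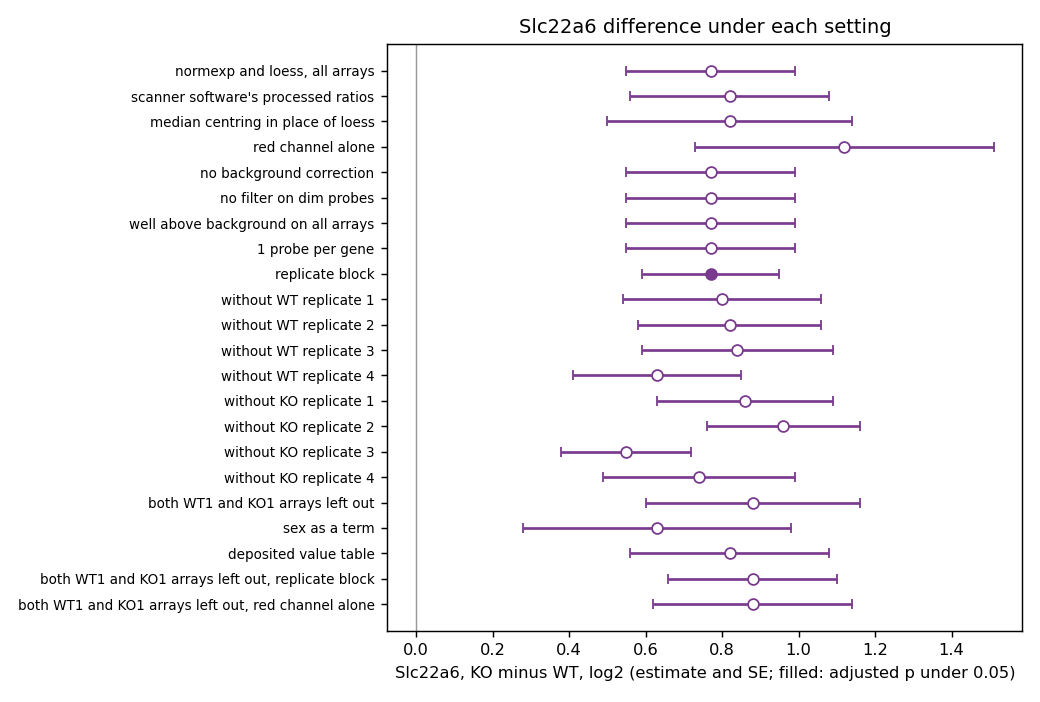
KO minus WT difference of Slc22a6 on the log2 scale (horizontal axis) under the reported setting (top) and 21 alternatives (vertical axis), as estimate and SE from limma. Filled points passed an adjusted p of 0.05. All estimates are positive, from 0.55 without KO replicate 3 to 1.12 in the red channel alone, and the filled point is the replicate block.

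Slc22a8 had log2 ratios of 0.01, 0.04, 0.23 and -0.42 in WT and of -0.07, 0.07, 0.43 and 0.21 in KO. Only KO3 lay above all WT arrays, and WT4 stood below the rest. The difference was 0.19 ± 0.14 (95% interval -0.11 to 0.50; limma adjusted p = 0.618). The interval does not reach the Slc22a6 estimate of 0.77, but the difference between these 2 genes was not tested. The value depended on WT4, without which it was 0.07 ± 0.12, and on KO3, without which it was 0.10 ± 0.14. The probe was dim on the 6 arrays with low negative controls, with red signals of 141 to 168 on WT2 to WT4 and 161 to 197 on KO2 to KO4. On WT1 it read 4126.5 in red and 1152 in green.

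Slc22a12 (URAT1) lies in the brush border facing the urine and takes filtered urate back into the cell. Its log2 ratios were -0.05, 0.21, 0.03 and -0.34 in WT and -0.13, -0.38, 0.09 and -0.01 in KO. The groups covered nearly the same range, and the low ends were WT4 and KO2. The difference was -0.07 ± 0.13 (95% interval -0.35 to 0.21; limma adjusted p = 0.876). Its sign turned in 4 of 21 settings, to 0.01 without WT2, 0.02 without KO2, 0.04 in the red channel alone and 0.01 in the red channel without WT1 and KO1. No direction is therefore given for Slc22a12.

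Slc22a2 (OCT2) takes organic cations such as creatinine and metformin from the blood into proximal tubule cells. Its log2 ratios were -0.44, -0.66, -0.31 and -1.10 in WT and -0.59, -0.68, 0.54 and -0.16 in KO. WT4 was again the lowest WT array and KO3 the highest KO array, KO3 and KO4 lay above all WT arrays, and KO1 and KO2 lay among them. The means were -0.63 ± 0.35 and -0.22 ± 0.55 (SD, n = 4 each), and the difference was 0.40 ± 0.24 (95% interval -0.11 to 0.92; limma adjusted p = 0.513). Of the tested probes 3.74% differed at least as much and 0.964% had an SE at least as large, so that Slc22a2, like Slc22a6, had one of the larger errors among the tested probes. Without KO3 the Slc22a2 difference was 0.15 ± 0.18, without KO2 it was 0.56 ± 0.24, and without both WT1 and KO1 it was 0.59 ± 0.29. In the red channel alone it was 0.67 ± 0.83, and there without WT1 and KO1 it was 0.33 ± 0.22. The unnormalized red signals overlapped, with 642 to 810 on WT2 to WT4 and 610 to 921.5 on KO2 to KO4. The green reference signals did not, with 487 to 496 on WT2 to WT4 and 346 to 378.5 on KO2 to KO4. The part of this green shift in the Slc22a2 difference was not tested.

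On the WT1 array a ratio of 0 is the true value for every probe. A departure from 0 there holds the error of that reading and any dye effect, which cannot be told apart without a dye swap. The negative controls were high on this array, so it need not stand for the others. Slc22a2 read -0.44 there without being well above background, and 3.56% of the kept probes lay as far from 0. Slc22a6 read -0.27 (16.5% of probes as far from 0) and Slc22a17 read -0.56 (0.865%). The other 5 members lay no farther than 0.10 from 0.

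The carnitine branch is made of Slc22a4 and Slc22a5, which lie on chromosome 11 on either side of Slc22a21. Slc22a5 (OCTN2) is the sodium-dependent carrier that recovers carnitine, the shuttle of fatty acids into mitochondria, from the filtrate, and Slc22a4 (OCTN1) carries ergothioneine, a dietary antioxidant. Slc22a5 had log2 ratios of 0.05, -0.16, 0.13 and -0.01 in WT and 0.15, 0.05, 0.13 and 0.26 in KO. KO1, KO3 and KO4 lay at or above WT3, the highest WT array, and KO2 lay among the WT arrays. The difference was 0.14 ± 0.09 (95% interval -0.05 to 0.34; limma adjusted p = 0.542). Against the male WT2 array all 4 KO arrays were higher, and the fit with sex as a term gave 0.31 ± 0.13 (adjusted p = 0.401).

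The Slc22a4 log2 ratios were 0.10, -0.02, 0.04 and -0.11 in WT and -0.15, -0.08, -0.04 and -0.34 in KO. KO1 and KO4 lay below all WT arrays and KO2 and KO3 among them. The difference was -0.16 ± 0.09 (95% interval -0.36 to 0.04; limma adjusted p = 0.511). The probe was well above background on only 5 arrays, with red signals of 69 to 94 units on the 6 arrays with low negative controls, next to 16569.5 on WT1 and 862 on KO1. In the red channel alone the difference was accordingly -1.36 ± 1.10, and there without WT1 and KO1 it was -0.16 ± 0.10.

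**Figure D3:**
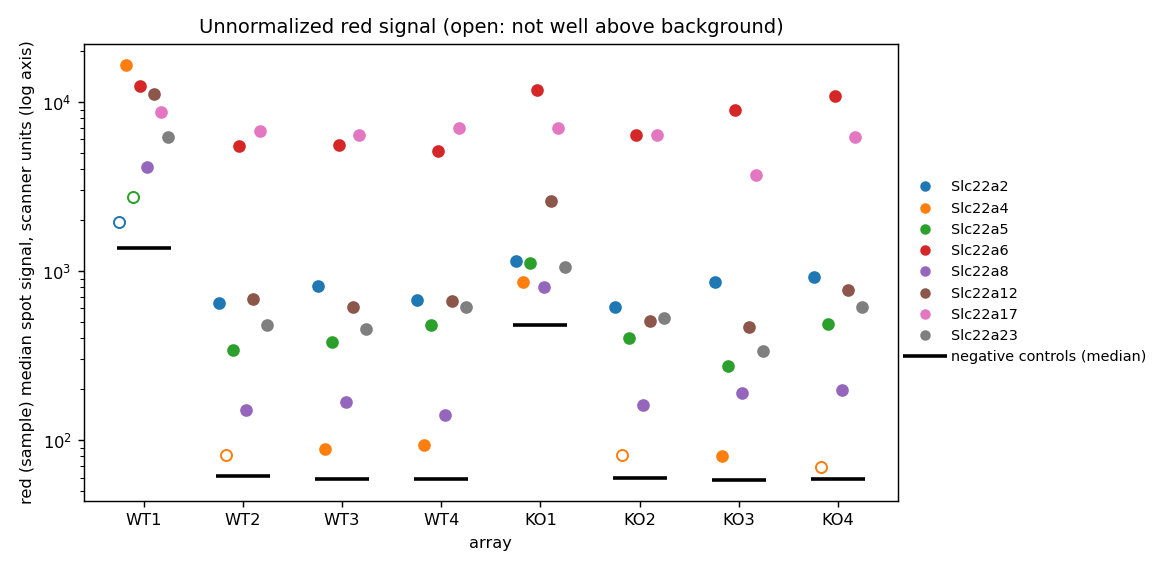
Median red (sample) spot signal before any normalization, in scanner units on a log axis, for the 8 Slc22 probes on each array, shifted sideways within an array for legibility. Black bars are the medians of the red negative-control spots, and open points were not well above background. The controls stand at 1361 on WT1 and 478.25 on KO1 against 58 to 61 on the other 6 arrays, and the Slc22a4 probe reads 16569.5 on WT1 against 69 to 94 on those 6. Heights of different probes cannot be compared.

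The promoters of Slc22a5 and Slc22a6 differ in base composition. The Slc22a5 window is shown with its 34 CpG dinucleotides in capitals. It lies on the minus strand at chr11:53891654-53891953 (GRCm38.p6, RefSeq) and is written 5′ to 3′ along the gene.
Slc22a5: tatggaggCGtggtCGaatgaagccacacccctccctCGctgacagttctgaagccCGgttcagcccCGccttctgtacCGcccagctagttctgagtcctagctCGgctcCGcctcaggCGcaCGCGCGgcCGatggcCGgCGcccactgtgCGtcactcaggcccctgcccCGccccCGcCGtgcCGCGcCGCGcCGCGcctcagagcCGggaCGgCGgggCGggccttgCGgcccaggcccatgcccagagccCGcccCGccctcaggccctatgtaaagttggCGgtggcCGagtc
The window is 72.7% G and C. Slc22a23 (77.3%, 38 CpG) and Slc22a4 (69.0%, 29 CpG) resemble Slc22a5. Slc22a12 (6 CpG) and Slc22a2 (8 CpG) lie near the median promoter window, which held 52.7% G and C and 7 CpG, and Slc22a17 lies above it (56.3%, 13 CpG). All 8 members had a RefSeq promoter.

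The remaining 2 members are not classical transporters of the tubule. Slc22a17 is known as a cell-surface receptor for lipocalin 2, an iron-carrying protein released by the injured tubule, and is expressed well outside the kidney. Its log2 ratios were -0.56, 0.12, 0.12 and -0.36 in WT and -0.19, 0.04, 0.02 and -0.10 in KO. All KO arrays lay within the WT range. The difference was 0.11 ± 0.14 (95% interval -0.20 to 0.43; limma adjusted p = 0.809), and its sign turned to -0.02 ± 0.13 without WT1, the self-hybridised array, and to -0.18 ± 0.21 with sex as a term. Slc22a23 is an orphan member, with no agreed substrate. Its log2 ratios were -0.06, -0.08, -0.22 and -0.12 in WT and 0.00, 0.05, -0.07 and 0.19 in KO. KO1, KO2 and KO4 lay above all WT arrays and KO3 just below the top of the WT range. The spread within each group was small, and the difference was 0.16 ± 0.09 (95% interval -0.02 to 0.35; limma adjusted p = 0.45).

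The members differed in the order of their arrays. In 5 of the 8 genes (Slc22a2, Slc22a4, Slc22a6, Slc22a8 and Slc22a12) WT4 was the lowest WT array and KO3 the highest KO array. Taken singly over all 13982 genes tested, WT4 was the lowest WT array in 18.4%, and the highest KO array was KO3 in 31.2%. How many of all genes had both was not counted. WT4 and KO3 deviated in opposite directions across probes (r of -0.551), so the single shares do not give a background for both at once. KO3 minus WT4 came to 1.87 for Slc22a6, 1.64 for Slc22a2, 0.85 for Slc22a8 and 0.43 for Slc22a12, but to 0.07 for Slc22a4, whose arrays hardly differed. Slc22a5, Slc22a17 and Slc22a23 had other orders. Measured as the mean absolute difference of log2 ratios over the 8 arrays, Slc22a5 and Slc22a23 were the closest pair of members (0.135). The neighbours Slc22a6 and Slc22a8 were 0.335 apart, and Slc22a2 and Slc22a5 were farthest apart (0.603). These distances did not sort the members by array order. Slc22a5 and Slc22a8 were 0.167 apart, as were Slc22a12 and Slc22a17, but Slc22a2 and Slc22a4 were 0.539 apart.

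The order of these arrays was also that of proximal tubule markers. Of 20 markers, 19 were kept (Fut9, which makes a surface sugar of proximal tubules, was not). WT4 was the lowest WT array for 19 of 19 and KO3 the highest KO array for 18 of 19. The median log2 ratio of the 19 markers was -0.18, -0.28, -0.19 and -0.68 on WT1 to WT4 and -0.09, -0.07, 0.71 and 0.23 on KO1 to KO4, and their summed processed red signal ran from 24500 to 42600 units in WT and from 38100 to 102000 in KO. None of the 19 passed limma's test, and 14 had an unadjusted p under 0.05, against 13.2% of the tested probes. All 19 were higher in KO, against 59.3% of all genes tested, and the median difference was 0.47. The endocytic adaptor Dab2 (0.43 ± 0.11, limma adjusted p = 0.0636) and the fatty acid carrier Slc27a2 (0.77 ± 0.19, adjusted p = 0.0736) came nearest, and both passed with the replicate block (adjusted p of 0.0233 and 0.0158). The part of these markers in the Slc22a6 and Slc22a2 values was not tested.

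**Figure D4:**
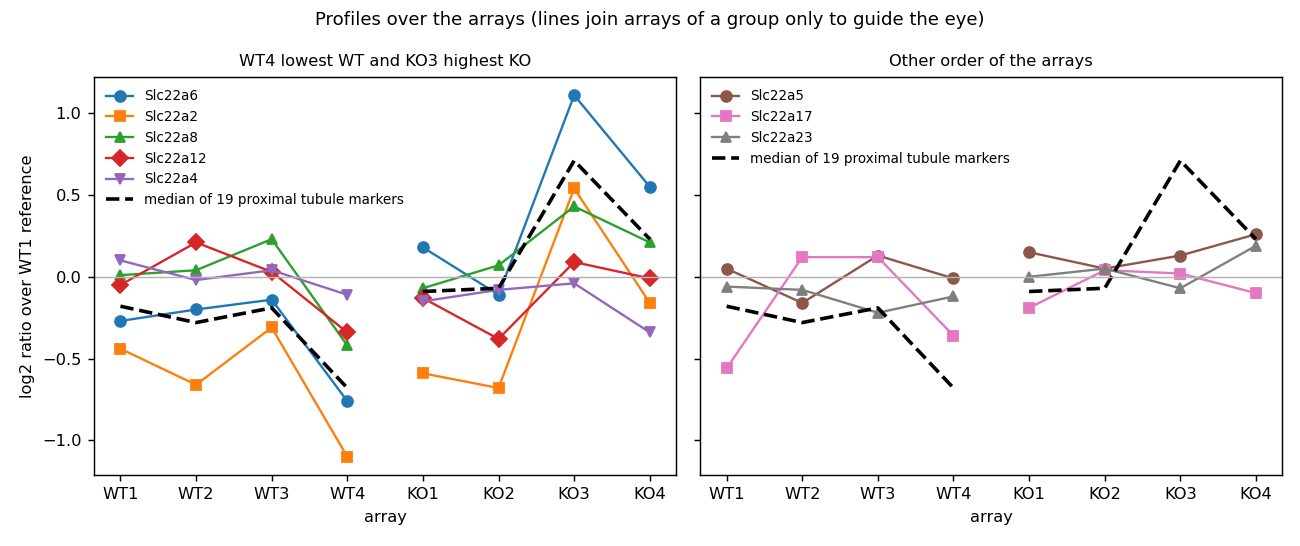
Log2 ratios over the WT1 reference (vertical axis) of the 8 Slc22 genes on the 8 arrays (horizontal axis), with the 5 genes whose lowest WT array was WT4 and highest KO array KO3 on the left and the other 3 on the right. The dashed line is the array median of 19 proximal tubule markers, which runs from -0.68 on WT4 to 0.71 on KO3. Slc22a6 and Slc22a2 swing with it by 1.87 and 1.64, and Slc22a4 by 0.07.

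Markers of the other cells of a kidney were measured too. Of 10 kept nephron progenitor markers 4 fell in KO, among them Cited1 with -2.72 and Uncx with -1.11, and the median difference was -0.38. Six2 differed by -0.21 (limma adjusted p = 0.47), and 2 of the 10 had positive estimates, Crym (0.23) and Eya1 (0.21). Of 10 stromal markers 4 rose, among them Pdgfra by 0.73 and Dcn by 0.53 (median 0.45). By the same test 1.33% of all genes rose and 0.493% fell. Leukocyte markers rose for 2 of 7 (Mrc1 by 0.56 and Cx3cr1 by 0.51; median 0.29) and collecting duct markers for 1 of 8 (Krt19 by 0.54; median 0.12). Podocyte, endothelial and loop and distal tubule markers, 8 each, had no call by limma (1, 1 and 4 at an unadjusted p under 0.05) and medians of 0.00, 0.03 and -0.01. Of 8 liver markers, included because the liver expresses some of the same transporters, 5 were kept, 1 rose (Afp) and 1 fell (Fgb). WT4 was the lowest WT array and KO3 the highest KO array for 4 of 8 collecting duct markers. One of these, Aqp2, ran from -1.38 on WT4 to 0.94 on KO3. Both also held for 3 of 8 loop and distal tubule markers, and for 0 to 2 members of each other list here. These values stand beside those of Slc22a6 and Slc22a2, and their part was not tested.

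The genes most like 3 of the members over the 8 arrays were sought by the same mean absolute difference. For Slc22a6 those reported are Slc17a1 (0.142) and Ndrg1 (0.145), where the median over all tested probes was 0.43. For Slc22a2 they were the brush-border protease gene Mep1a (0.155), Gpx3, a secreted glutathione peroxidase made in proximal tubules (0.164), and Fabp3 (0.166), with a median of 0.563 over all probes. For Slc22a8 the nearest were H2-Q2 (0.0746), Zfp931 (0.0757) and Kif3a (0.0765), with a median of 0.237. All of these genes had their lowest WT array in WT4 and their highest KO array in KO3, an order that likeness to these members favours.

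The rest of the family was read from a list of 17 further Slc22 genes, of which 16 had a named probe and 10 were kept. One of these 10, Slc22a18, rose, 0 fell, and all 10 estimates were positive. Over all genes tested 1.33% rose and 0.493% fell. By limma 7 of the 10 had an unadjusted p under 0.05, against 13.2% of the tested probes. For 4 the groups did not overlap, against 9.28% of all genes tested. The median difference was 0.31 without Slc22a29, whose probe was not well above background on any WT array, and 0.35 with it. Slc22a18, the imprinted member, had 0.04, 0.03, 0.04 and -0.15 in WT and 0.27, 0.39, 0.93 and 0.75 in KO, with no overlap (0.60 ± 0.13; limma adjusted p = 0.0456). That call was lost in 15 of 21 settings, among them 7 of the 8 in which 1 array was left out, which were all except KO1.

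Among the others, Slc22a22, a prostaglandin carrier, differed by 0.39 ± 0.10 (limma adjusted p = 0.0765), and Slc22a21 (OCTN3), the carnitine transporter gene between Slc22a5 and Slc22a4, by 0.27 ± 0.08 (adjusted p = 0.16). The values for the chromosome 11 cluster were thus 0.14 for Slc22a5, 0.27 for Slc22a21 and -0.16 for Slc22a4, none past the threshold. Slc22a19, Slc22a28 and Slc22a29 belong to a rodent cluster of related genes next to Slc22a8 on chromosome 19. Their probes may read each other's RNA, which was not tested. Slc22a3, Slc22a14, Slc22a16, Slc22a20, Slc22a26 and Slc22a27 had probes that were not kept.

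**Figure D5:**
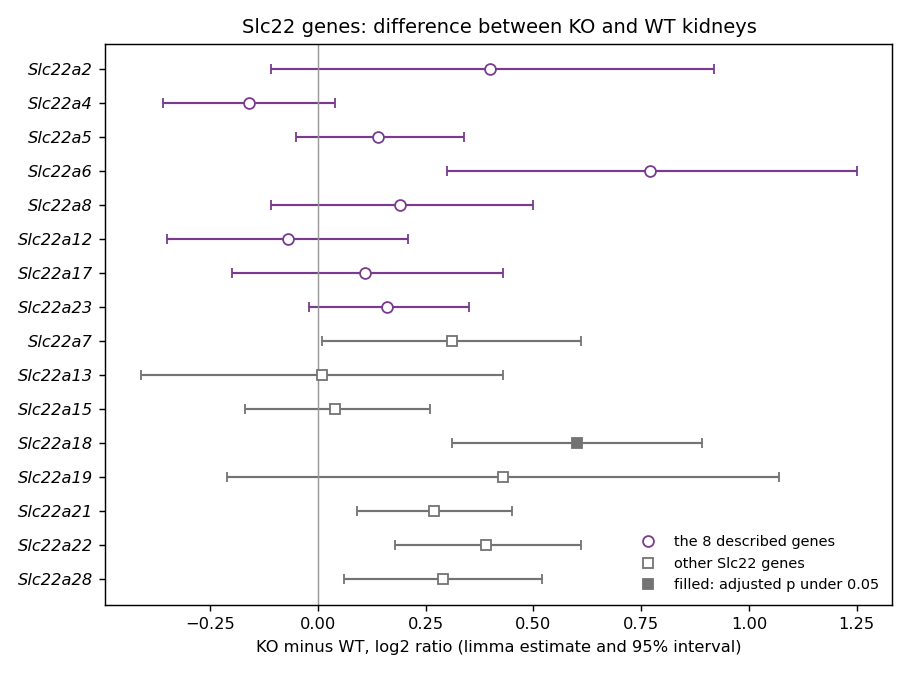
KO minus WT difference on the log2 scale (horizontal axis, limma estimate and 95% interval) of the 8 described Slc22 genes (circles) and of 8 other kept Slc22 genes (squares). Slc22a29, not well above background in any WT array, is left out. Slc22a18 (filled) is the one gene here with an adjusted p under 0.05, and the interval of Slc22a6 lies on the positive side without passing after adjustment.

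Organic anions that Slc22a6 and Slc22a8 bring in are driven by dicarboxylates and leave the cell through apical carriers. A list of 21 partner genes held apical exporters, dicarboxylate carriers, urate carriers and scaffolds. It also held other organic ion carriers outside this path, among them Slc47a1 and Slc16a9. The list had 18 kept genes, with Abcb1a, Slc2a9 and Slc47a2 left out. By limma 0 of 18 passed, 9 had an unadjusted p under 0.05 (13.2% of all tested probes), and for 7 the groups did not overlap (9.28% of all genes tested). One of these 7, the exporter gene Abcb1b, was lower in KO (-0.23 ± 0.10, limma adjusted p = 0.307). Their estimates were positive in 15 and negative in 3, with a median of 0.19. The apical phosphate and urate carrier Slc17a1 had -0.20, -0.45, -0.17 and -1.06 in WT and 0.26, -0.01, 1.32 and 0.46 in KO, with no overlap and with WT4 and KO3 as extremes (0.98 ± 0.26; limma adjusted p = 0.0856). Slc13a2, the apical dicarboxylate carrier, differed by 0.79 ± 0.20 (adjusted p = 0.0673), and the carnitine efflux carrier Slc16a9 by 0.40 ± 0.10 (adjusted p = 0.0666).

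With the replicate block 4 of the 18 partner genes rose: Slc17a1 (limma adjusted p = 0.0186), Slc13a2 (0.0334), the urate exporter Slc17a3 (0.0448) and Slc16a9 (0.047). In that fit 2.39% of all probes rose. Slc13a2 also passed without KO1 (0.98 ± 0.17, adjusted p = 0.012) and without both WT1 and KO1 (1.02 ± 0.19, adjusted p = 0.0413), a fit in which 0.887% of all probes rose. Slc47a1, the luminal cation exporter paired with Slc22a2, differed by 0.12 ± 0.14 (adjusted p = 0.774), and Abcc4, an exporter of anions, by 0.05 ± 0.10 (adjusted p = 0.9).

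No call was made among the genes around Slc22a5 and Slc22a17. Of 10 genes for carnitine synthesis and use and for lipocalin 2, 9 were kept (Bbox1, the last enzyme of carnitine synthesis, was not), and 0 passed limma's test with 1 at an unadjusted p under 0.05. Their median difference was 0.02. Aldh9a1, an enzyme of carnitine synthesis, differed by 0.23 ± 0.10 (limma adjusted p = 0.34), Cpt2, which releases fatty acids from carnitine in mitochondria, by 0.25 ± 0.13 (0.461), and Lcn2, the ligand of Slc22a17, by -0.30 ± 0.17 (0.487).

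Of 12 regulators of proximal tubule genes, 9 were kept, 2 rose and 0 fell, with a median difference of 0.16. The shares over all genes tested were 1.33% and 0.493%. Nr1h4, the bile acid receptor, had -0.07, -0.32, -0.37 and -0.58 in WT and 0.56, 0.28, 1.07 and 0.69 in KO. All KO arrays lay above all WT arrays, and the difference was 0.98 ± 0.15 (limma adjusted p = 0.00945), past the threshold in each fit with 1 array left out. The call was lost with median centring, in the red channel alone and with sex as a term, where the difference was 0.97 ± 0.25 (adjusted p = 0.212). Maf, a leucine zipper transcription factor, rose by 0.59 ± 0.13 (adjusted p = 0.0387), a call lost in 14 of the 20 settings that tested it, among them 7 of the 8 in which 1 array was left out, all except WT3. Hnf4a, a nuclear receptor of proximal tubule cells, differed by 0.11 ± 0.11 (adjusted p = 0.733). Neither the Nr1h4 nor the Maf probe was well above background on all 8 arrays. Cdx2, Foxa2 and Hnf4g were not kept.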

How the data were processed

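RNA of 8 mouse embryonic kidney samples (4 WT, 4 KO, replicates numbered by the labels) was measured on 2-colour arrays. The scanner files come from version 10.7.3.1 of Agilent Feature Extraction, as their headers state. From the deposited intensity columns, the median spot signals of both channels and their local backgrounds were taken, which are not normalized. The deposited log10 ratio compares processed red with processed green, per the file headers, and other deposited columns hold 0 or 1 flags for outlier, saturated and well-above-background spots. The deposited value table repeats this log10 ratio, with a median of 0 on every array. The design had named mean signals, and the median signals that the files hold were used.

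In R 4.3.3 with limma 3.58.1, log2 ratios were made by normexp background correction (offset 50) and loess within arrays, with 1765 outlier readings (0.372%) left out, none of them from a member. Accessions without version were matched to RefSeq names of GRCm38.p6 (27509 of 55681 probes); the file headers name build mm9, so no probe coordinates are given. Probes well above background in red on at least 4 arrays were tested with lmFit and eBayes, with Benjamini-Hochberg adjustment over all 18146 at 0.05. Counts over lists use the probe of highest mean intensity per gene (13982 genes). The fit was run on simulated data with independent errors. These lacked deviations that the probes of an array share, so false calls in the present data were not measured. Same-numbered samples deviated together (r of 0.145 to 0.366 across probes in 4 pairs, their slide columns being the same), so the number was treated as pairing in an alternative fit. Differently numbered samples ran from -0.551 (WT4 with KO3) to 0.359 (WT4 with KO1), with WT2 and KO3 at 0.316. These values thus do not establish the pairing that the block fit assumes. The labels do not name litters, and p-values measure the spread between these samples.

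Alternatives were software ratios, median centring, red channel alone, no background correction, other filters, 1 probe per gene, the block, arrays left out, sex as a term and the deposited table. Fits without WT1 and KO1 with the block or in red alone were added after seeing the data. The members, lists and tests were chosen with earlier results of these data known. Named were all members, every list gene that passed with up to 3 of smallest p, up to 2 markers per list, and the 3 genes most like each of the 3 members of largest difference. Hnf4a, Slc47a1, Abcc4, Abcb1b, Six2, Crym, Eya1 and Aqp2 were named after their values were seen. Some genes that this rule names are not reported here. Promoters come from RefSeq's GRCm38.p6 table.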

Additional observations from a re-analysis of the deposited data

Results flagged for a closer look

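Slc13a2 read -0.49 on WT4, where the other WT arrays lay between 0.08 and 0.18. Slc22a18 read -0.15 on WT4, against 0.03 to 0.04 on the others. These are 2 of the 48 gene and group combinations examined for a sample far from its group, where chance gives about 1 in 20. No reading of the 8 described genes met this criterion.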

How the results depend on the processing

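Of the described genes, Slc22a2, Slc22a4, Slc22a5, Slc22a6, Slc22a8 and Slc22a23 kept their sign in each setting run, and of all 8 only Slc22a6 passed, with the replicate block, which called 1 member (0 to 0 with 1 array left out). Slc22a12 turned to 0.04 (red channel alone) and 0.01 (red alone without WT1 and KO1), with -0.17 to 0.02 over single arrays left out. Slc22a17 turned to -0.18 (sex as a term) and -0.03 (red alone without WT1 and KO1), with -0.02 to 0.21. Ppara and Cebpa were each -0.01 with sex as a term. The median of the members was 0.35 in red alone, a setting that put the median of all probes at 0.18, and 0.10 to 0.20 with 1 array left out.

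The calls on the lists were less stable. Among the other Slc22 genes 0 rose with the software's ratios, median centring, red alone, no background correction, no filter, sex as a term, the deposited table and red alone without WT1 and KO1; 2 rose without these arrays in the block fit, and 0 to 1 with 1 array left out. Of the partner genes 4 rose with the block, 1 without WT1 and KO1, 4 with both, and 0 to 1 with 1 array left out. Of the regulators 0 rose with median centring, red alone and sex as a term, and 0 with the filter on all arrays, which removed Nr1h4 and Maf from the test; 1 rose with the software's ratios, without WT1 and KO1, with the deposited table and in red alone without these arrays; the range with 1 array left out was 1 to 2. Median centring called 0 of all probes (203 at an unadjusted p under 0.05), sex as a term 13, red alone 1, the software's ratios 103 and the block 550, against 278. Leaving out KO4 called 79, KO2 140, KO3 172, WT1 155, WT2 153 and WT4 126. The causes were not tested. The filter on all 8 arrays left 5 members. Slc22a2, Slc22a4 and Slc22a5 were not well above background on every array.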
